A study of Homo sapiens with 12 samples.

Results

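The comparison described here is the interaction of paxillin siRNA with DHT in C4-2 cells: the response of each gene to dihydrotestosterone (DHT) in cells that received siRNA against paxillin, minus its response in cells that received nonspecific siRNA. It used all 12 of the 12 libraries in the series. C4-2 is a prostate cancer line derived from LNCaP that is castration resistant. RNA of the cells was sequenced after a small interfering RNA (siRNA) was transfected for 48 h, serum was withdrawn for 12 h, and ethanol vehicle or 2.5 nM DHT was given for 24 h. Each siRNA was combined with each treatment, which made 4 groups of 3 libraries: nonspecific vehicle, nonspecific DHT, paxillin vehicle and paxillin DHT. All 4 groups were thus transfected and kept without serum, and the vehicle groups carried both of these treatments too. The labels name 1 cell line and give neither the siRNA sequences nor how many siRNAs were used, so effects on transcripts other than PXN cannot be told apart from loss of paxillin. Nor do they say that replicates came from separate cultures. The p-values therefore reflect only how far these libraries spread, and that spread may be technical.

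Paxillin, encoded by PXN, is an adaptor protein of focal adhesions that links integrins to kinases and the actin cytoskeleton, and that also moves to the nucleus. DHT is the most potent natural androgen, a steroid hormone that raises some genes of the prostate and lowers others. A nonzero interaction says that a gene's change with DHT differed between the siRNAs, and it can arise from a difference in vehicle, in DHT or in both.

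The targeted gene followed the labels in each library. PXN (chromosome 12, 120210439 to 120265771 in GRCh38, as are all gene positions below) stood at 149, 139 and 151 CPM (counts per 1000000 of the TMM-scaled library total) in vehicle and 136, 121 and 122 CPM in DHT with nonspecific siRNA. With paxillin siRNA it stood at 16.7, 12.4 and 12.3 CPM in vehicle and 14.2, 11.3 and 9.36 CPM in DHT. The siRNA groups were far apart in both treatments, and the interaction was -0.03 ± 0.12 (log2 ± SE, edgeR with Benjamini-Hochberg adjusted p = 0.949). Exons of PXN overlap those of the antisense gene PXN-AS1, and the strand setting of the counting is not given in the sources used here. Of the paralogs, LPXN (leupaxin) had an interaction of 0.10 ± 0.26 (edgeR adjusted p = 0.911), and TGFB1I1 (Hic-5) had 0 to 7 counts in a library and was not tested.

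Library totals ran from 11944906 counts in nonspecific vehicle 1 to 32040465 in paxillin DHT 1, so 1 count was worth 0.0815 CPM in the former and 0.0328 CPM in the latter. All 10 luminal prostate markers, among them KLK3, HOXB13 and KRT8, were present in every library. Of 15 markers of basal, immune, endothelial and fibroblast cells, 13 were under 1 CPM in every library and CD3E was at 0. The exceptions were VWF at 8.30 to 14.95 CPM and COL1A1 at 24.8 to 47.6 CPM. The summed level of the 15 markers ran from 48.3 to 62.3 CPM in nonspecific vehicle, 46.6 to 51.7 in nonspecific DHT, 41.2 to 47.7 in paxillin vehicle and 37.2 to 43.1 in paxillin DHT. Its part in the results below was not tested. In bulk RNA, fewer cells of a kind and less RNA per cell cannot be told apart.

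Of 16115 genes with enough counts to test, 97 (0.602%) had a DHT response that differed between the siRNAs at an adjusted p under 0.05 (edgeR quasi-likelihood test with the replicate number as a block). In 42 genes (0.261%) the DHT change was more positive with paxillin siRNA and in 55 (0.341%) more negative. The differences were mostly modest: 7 genes differed at least 2-fold and 69 by under 1.5-fold. At an unadjusted p under 0.05 there were 2139 genes (13.3%). Over all genes tested the median interaction was -0.00 (log2), and 8085 values were negative and 8030 positive. ZNF827 was the last gene called, at an edgeR adjusted p of 0.0483, and ATAD3A the first not called, at 0.0503.

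The 97 genes were sorted by their DHT response in each siRNA arm, and each had a called response in at least 1 arm. A response is named enlarged or blunted where it was called in both arms in 1 direction and was larger or smaller with paxillin siRNA. It is named lost where it was called with nonspecific siRNA only, gained where it was called with paxillin siRNA only, and reversed where the arms were called in opposite directions. Enlarged responses numbered 22, with 17 rises and 5 falls, and blunted responses 40, with 32 rises and 8 falls. Lost responses numbered 15, with 8 rises and 7 falls. There were 9 gained responses, 5 rises and 4 falls, and 11 reversed ones. The DHT response itself was called in 7437 genes (46.1%) with nonspecific siRNA and in 7067 (43.9%) with paxillin siRNA, so a called response in an arm is common and its count among the 97 is a description.

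Being called in 1 arm and not in the other was seldom a called difference between the arms. Of 2015 genes called for DHT with nonspecific siRNA alone, 15 (0.744%) were called for the interaction. Of 1645 called with paxillin siRNA alone, 9 (0.547%) were. Of 18 genes called in opposite directions in the arms, 11 were. For the other genes in these groups the data do not show that the responses differed.

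**Figure D1:**
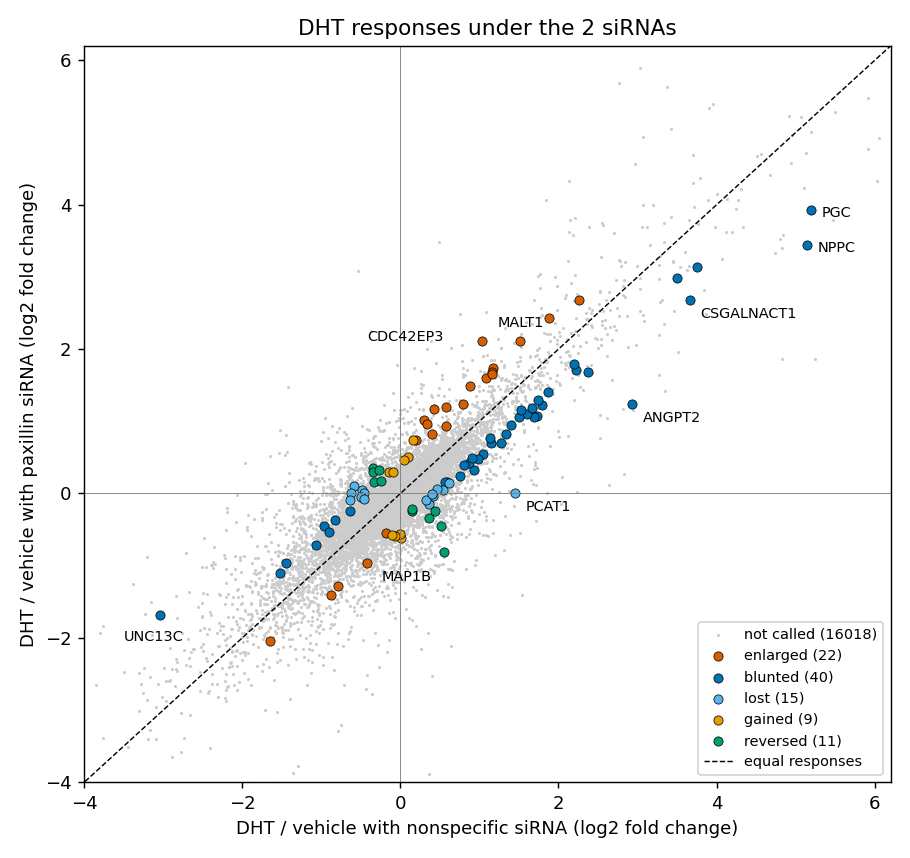
Log2 fold change of DHT against vehicle with nonspecific siRNA (horizontal axis) and with paxillin siRNA (vertical axis) for the genes tested, with the 97 called for the interaction coloured by class. The dashed line marks equal responses. Blunted genes lie between it and the horizontal line at 0, lost genes lie near that line, and 48 genes, none of them called, lie outside the axes.

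The calls depended on single libraries and on the replicate block. Every one of the 97 kept its direction in all 23 alternative fits. This was favoured in advance, as the genes were picked from these same libraries and had 1 sign in the 3 replicate numbers. Without nonspecific vehicle replicates 1, 2 and 3 in turn, 247, 21 and 204 genes were called, of which 97, 21 and 84 were among the 97. The corresponding counts were 74, 30 and 74 without nonspecific DHT replicates (53, 30 and 61 shared), 334, 34 and 46 without paxillin vehicle replicates (95, 31 and 35 shared), and 91, 35 and 36 without paxillin DHT replicates (66, 35 and 33 shared). Leaving out all libraries with replicate number 2 left 0 genes called by edgeR, with 949 at an unadjusted p under 0.05. Leaving out number 1 gave 560 calls and number 3 gave 22. Without the block 8 genes were called, all among the 97: CDC42EP3, KDM5A, PCAT1, TMTC2, CITED2, FAM129A, PGC and ZNF737. The 16 genes that kept the call without each single library were the first 7 of these and ANGPT2, CLDN3, COBLL1, CXCL12, KCNN2, LCP1, NFIB, RHOU and TP53I11.

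**Figure D2:**
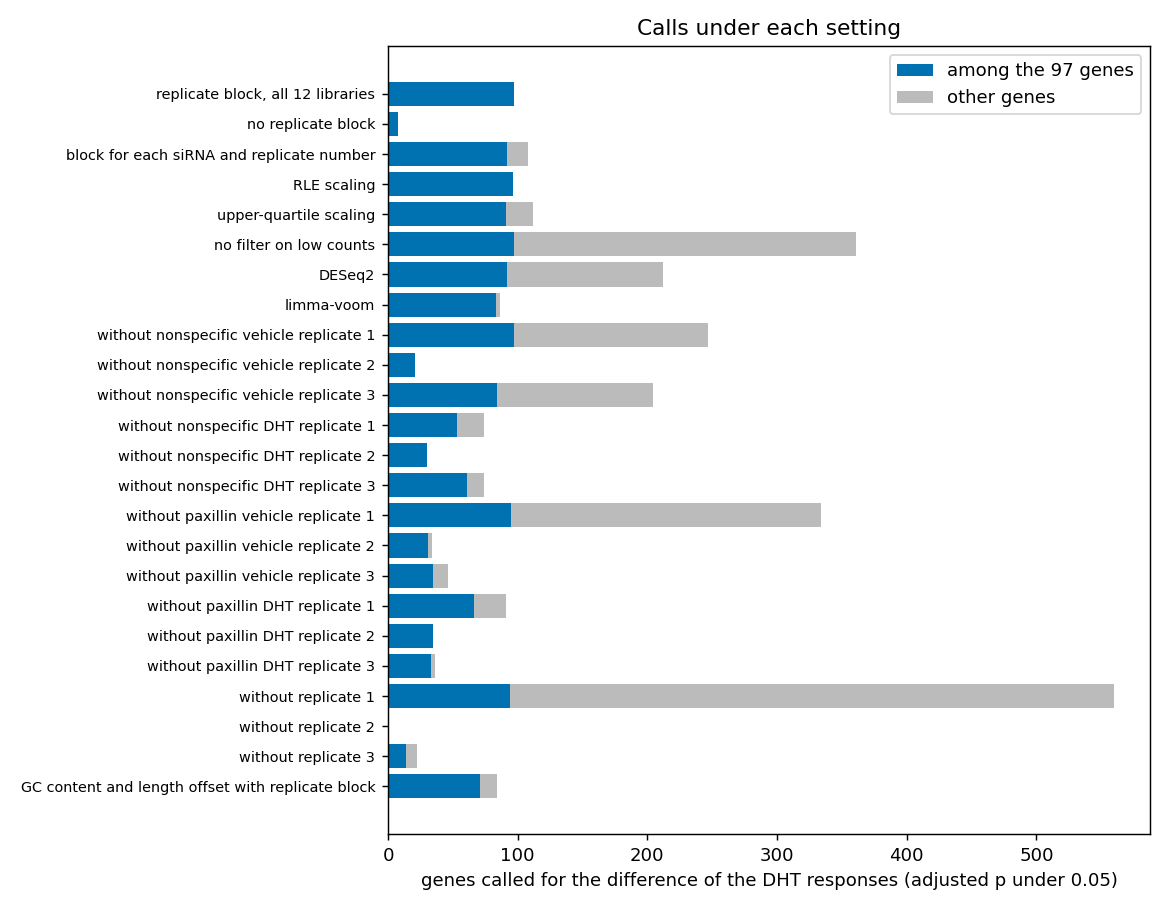
Number of genes called for the interaction (edgeR adjusted p under 0.05, or that of the tool named) under each setting. The blue part of a bar counts genes among the 97 and the grey part other genes; calls fall to 21 without nonspecific vehicle 2 and to 0 without replicate number 2.

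Among the enlarged rises, CDC42EP3 (chromosome 2, 37641882 to 37738468), an effector of the small GTPase Cdc42, had the largest difference. It rose from 14.2, 13.4 and 12.7 CPM in vehicle to 28.8, 25.7 and 27.6 in DHT with nonspecific siRNA. With paxillin siRNA it rose from 17, 13.97 and 15.1 to 55.1, 65.8 and 80.1 CPM. The siRNA groups overlapped in vehicle, and in DHT every paxillin library lay far above every nonspecific one. DHT thus raised it 2.05-fold and 4.33-fold, an interaction of 1.08 ± 0.15 (log2 ± SE, edgeR adjusted p = 0.00176) with 0.67, 1.30 and 1.29 in replicate numbers 1, 2 and 3. ZNF737, a zinc finger gene (chromosome 19, 20535825 to 20565809), showed the same arrangement, with overlapping siRNA groups in vehicle and separate ones in DHT. Its levels were 11.8, 13.7 and 13.3 CPM in vehicle and 15.7, 16.7 and 15.8 in DHT with nonspecific siRNA, against 12.2, 12.5 and 11.7 and 24.7, 22.9 and 25.6 with paxillin siRNA (interaction 0.71 ± 0.12, edgeR adjusted p = 0.00611). The ZNF737 call was kept in 11 of 12 single-library omissions and lost without nonspecific vehicle 2 (edgeR adjusted p = 0.0544).

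Among the 17 enlarged rises the effect of paxillin siRNA was called in vehicle alone in 5, in DHT alone in 7 and in both in 5. TMTC2, ELL2 and NECTIN3 were among those called in vehicle or in both treatments. TMTC2, a mannosyltransferase of the endoplasmic reticulum (chromosome 12, 82686880 to 83134870), stood at 41.9, 44.5 and 42.6 CPM in nonspecific vehicle and at 29.4, 23.6 and 27.5 in paxillin vehicle. In DHT it reached 50.5, 57.7 and 64.97 and 60.1, 56.04 and 65.2 CPM. The paxillin libraries were lower in vehicle without overlap, while the DHT groups overlapped. The rise was 1.34-fold with nonspecific and 2.25-fold with paxillin siRNA (interaction 0.75 ± 0.11, edgeR adjusted p = 0.00304), and the call was kept in all 12 single-library omissions. ELL2, an elongation factor of RNA polymerase II and a textbook androgen target (chromosome 5, 95885098 to 95962071), started lower and ended lower with paxillin siRNA. It went from 25.1, 30.6 and 31.4 to 113, 104 and 109 CPM with nonspecific siRNA and from 17.3, 16.7 and 13.5 to 84.6, 87.96 and 84.6 with paxillin siRNA. The siRNA groups did not overlap in either treatment, and paxillin siRNA lowered it by a wider ratio in vehicle (1.86-fold) than in DHT (1.27-fold). Its rise was 3.69-fold and 5.41-fold (interaction 0.55 ± 0.11, edgeR adjusted p = 0.0267), with 0.12, 0.63 and 0.84 in the replicate numbers, and the call was kept only without nonspecific vehicle 1, nonspecific DHT 1, nonspecific DHT 3, paxillin vehicle 1 or paxillin DHT 1 among the 12 single-library omissions (edgeR adjusted p up to 0.160 in the others). NECTIN3, a cell adhesion molecule, had an interaction of 0.62 ± 0.11 (edgeR adjusted p = 0.0109). It was lower in paxillin vehicle and higher in paxillin DHT than in the nonspecific groups, without overlap in either. In DHT its difference by siRNA was not called (edgeR adjusted p = 0.0575). The NECTIN3 call was kept in 10 of 12 single-library omissions and lost without paxillin vehicle 2 or paxillin DHT 2 (edgeR adjusted p = 0.0503 to 0.0554). FAM129A and CITED2, a coactivator partner of CBP and p300, were picked out for this account after their values were seen. Their interactions were 0.61 ± 0.09 and 0.54 ± 0.09, with edgeR adjusted p-values of 0.00311 and 0.00567, and both calls were kept in all 12 single-library omissions. Across the 17 enlarged rises the interaction ran from 0.36 to 1.08. With paxillin siRNA the level was called lower in vehicle in 10 of the 17 and higher in DHT in 9.

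The 5 enlarged falls had interactions from -0.55 to -0.37. PTK7, a receptor of the Wnt planar cell polarity pathway with an inactive kinase domain (chromosome 6, 43076268 to 43161719), stood at 119, 105 and 109.7 CPM in nonspecific vehicle and 156, 159.6 and 192 in paxillin vehicle. In DHT it fell to 64.9, 62.8 and 64.97 and 65.02, 67.7 and 76.3 CPM. The siRNA groups were well apart in vehicle, and in DHT they came within a few CPM of each other with the paxillin group just above. The interaction was -0.49 ± 0.09 (edgeR adjusted p = 0.0134), and the call was kept in 8 of 12 single-library omissions and lost without nonspecific vehicle 2, nonspecific DHT 2, paxillin vehicle 3 or paxillin DHT 2 (edgeR adjusted p = 0.0509 to 0.0755). LMO4, a LIM-only transcriptional cofactor, had an interaction of -0.40 ± 0.09 (edgeR adjusted p = 0.0440) with overlapping siRNA groups in both treatments. The LMO4 call was kept only without nonspecific vehicle 1, nonspecific DHT 3 or paxillin vehicle 1 among the 12 single-library omissions (edgeR adjusted p up to 0.210 in the others). MAP1B, a microtubule-associated protein (chromosome 5, 72107234 to 72209570), differed from these in being lower with paxillin siRNA in both treatments. It stood at 446, 505 and 381 CPM in vehicle and 368, 345 and 285 in DHT with nonspecific siRNA, and at 319, 264 and 239 and 166, 152 and 106 with paxillin siRNA. No siRNA groups overlapped, and the gap was wider in DHT (interaction -0.55 ± 0.10, edgeR adjusted p = 0.0110). The MAP1B call was kept in 11 of 12 single-library omissions and lost without paxillin DHT 3 (edgeR adjusted p = 0.0552). MCM2, also an enlarged fall, is described with the DNA replication genes.

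Blunted rises, 32 in number, were the most frequent change. PGC, which encodes the aspartic protease progastricsin (chromosome 6, 41736711 to 41754109), stood at 2.93, 1.63 and 1.43 CPM in nonspecific vehicle and 4.14, 4.78 and 4.75 in paxillin vehicle. In DHT it reached 75.8, 61.3 and 64.7 CPM with nonspecific and 70.3, 66.98 and 70.7 with paxillin siRNA. The paxillin libraries were higher in vehicle without overlap, and the DHT groups overlapped, so the rise was 36.6-fold against 15.2-fold from a higher start to a like level (interaction -1.26 ± 0.19, edgeR adjusted p = 0.00311, -0.59, -1.38 and -1.55 in the replicate numbers). The PGC call was kept in all 12 single-library omissions. ANGPT2, a ligand of the endothelial receptor TIE2, had the same arrangement. It stood at 1.88, 2.29 and 1.77 CPM in nonspecific vehicle, 5.06, 8.46 and 11.1 in paxillin vehicle, 15.4, 13.3 and 14.8 in nonspecific DHT and 14.3, 19.9 and 23.6 in paxillin DHT. Only its vehicle groups were apart (interaction -1.68 ± 0.26, edgeR adjusted p = 0.00311), and the call was kept in all 12 single-library omissions. Exons of ANGPT2 overlap those of MCPH1 on the opposite strand, so its counts are uncertain. CSGALNACT1, an enzyme that starts chondroitin sulfate chains, rose 12.6-fold against 6.43-fold (interaction -0.97 ± 0.17, edgeR adjusted p = 0.00920), again with groups apart in vehicle and overlapping in DHT. The CSGALNACT1 call was kept in 11 of 12 single-library omissions and lost without nonspecific vehicle 2 (edgeR adjusted p = 0.0653).

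NPPC, which encodes C-type natriuretic peptide (chromosome 2, 231921820 to 231926403), was blunted with a lower level in DHT. The log2 change by paxillin siRNA was -1.05 in DHT, where it was called. It was 0.65 in vehicle (edgeR adjusted p = 0.157), which also adds to the interaction. It was under 1.5 CPM in every vehicle library, with 0.571, 0.465 and 0.677 CPM for nonspecific and 0.658, 0.729 and 1.38 for paxillin siRNA. In DHT it stood at 21.1, 20.1 and 20.7 CPM with nonspecific and 12.3, 8.70 and 8.97 with paxillin siRNA, and here the groups were far apart (interaction -1.70 ± 0.35, edgeR adjusted p = 0.0267). The NPPC call was kept only without nonspecific vehicle 1, nonspecific vehicle 3, nonspecific DHT 1, nonspecific DHT 3, paxillin vehicle 1 or paxillin DHT 1 among the 12 single-library omissions (edgeR adjusted p up to 0.171 in the others). CXCL12, a chemokine named here after its values were seen, also had overlapping vehicle groups and separate DHT groups. It rose from 16.96, 11.98 and 10.6 to 77.01, 65.5 and 59.2 CPM with nonspecific siRNA and from 13.1, 9.19 and 7.86 to 38.3, 29.004 and 28.98 with paxillin siRNA (interaction -0.69 ± 0.11, edgeR adjusted p = 0.00530), a call kept in all 12 single-library omissions. KCNN2, a calcium-activated potassium channel (chromosome 5, 114055545 to 114496500), shared with PCAT1 the smallest edgeR adjusted p of the comparison, 0.00122, at an interaction of -0.63 ± 0.08. It went from 129, 98.6 and 89.1 to 375, 326 and 309 CPM with nonspecific siRNA and from 139, 125 and 123 to 312, 257 and 243 with paxillin siRNA. Its siRNA groups overlapped in both treatments, while within each replicate number the rise was smaller with paxillin siRNA (-0.38, -0.69 and -0.81). The KCNN2 call was kept in all 12 single-library omissions.

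RHOU, a small GTPase related to Cdc42 (chromosome 1, 228735077 to 228746669), rose from 32.1, 28.7 and 24.7 to 347, 294 and 318 CPM with nonspecific siRNA and from 39.95, 38.4 and 38.04 to 336, 306 and 285 with paxillin siRNA. Only the vehicle groups were apart, with the paxillin libraries higher (interaction -0.51 ± 0.09, edgeR adjusted p = 0.00944), and the call was kept in all 12 single-library omissions. FZD5, a Wnt receptor (chromosome 2, 207762586 to 207769563), rose 4.65-fold against 3.26-fold (interaction -0.51 ± 0.10, edgeR adjusted p = 0.0129), and the protein disulfide isomerase PDIA5 rose 3.05-fold against 2.15-fold (interaction -0.50 ± 0.10, edgeR adjusted p = 0.0267). Both reached like levels in DHT from a higher paxillin vehicle level. The FZD5 call was kept in 8 of 12 single-library omissions and lost without nonspecific DHT 2, paxillin vehicle 2, paxillin vehicle 3 or paxillin DHT 2 (edgeR adjusted p = 0.0514 to 0.0682), and the PDIA5 call was kept only without nonspecific vehicle 1, nonspecific vehicle 3, nonspecific DHT 1, nonspecific DHT 3, paxillin vehicle 1 or paxillin DHT 1 among the 12 single-library omissions (edgeR adjusted p up to 0.102 in the others). MYC, the proto-oncogene transcription factor, went from 217, 154 and 153 to 359, 271 and 248 CPM with nonspecific and from 231, 202 and 191 to 309.9, 241 and 194 with paxillin siRNA. Its siRNA groups overlapped in both treatments, and the smaller rise showed within the replicate numbers (-0.30, -0.57 and -0.68; interaction -0.51 ± 0.09, edgeR adjusted p = 0.00944). The MYC call was kept in 11 of 12 single-library omissions and lost without nonspecific vehicle 2 (edgeR adjusted p = 0.0606). GDF15, a stress-induced cytokine (chromosome 19, 18374731 to 18389176), was lower with paxillin siRNA in both treatments without overlap, and more so in DHT. It rose 4.57-fold against 3.48-fold (interaction -0.39 ± 0.09, edgeR adjusted p = 0.0404), and the call was kept only without nonspecific vehicle 1, nonspecific vehicle 3, paxillin vehicle 1 or paxillin DHT 1 among the 12 single-library omissions (edgeR adjusted p up to 0.199 in the others). LCP1, which bundles actin, and the tight junction gene CLDN3 were named after their values were seen, with interactions of -0.47 ± 0.08 and -0.57 ± 0.10 (edgeR adjusted p = 0.00482 and 0.00611) and calls kept in all 12 single-library omissions. Over all 32 blunted rises the interaction ran from -1.70 to -0.36.

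Blunted falls numbered 8. UNC13C, a synaptic vesicle priming factor (chromosome 15, 53978201 to 54633414), had the largest positive interaction of the 97 genes. It fell from 10.03, 12.98 and 14.02 to 1.16, 1.70 and 1.61 CPM with nonspecific siRNA and from 35.1, 57.1 and 55.03 to 7.83, 16.1 and 23.7 with paxillin siRNA. All paxillin libraries were above all nonspecific ones in both treatments, by a wider ratio in DHT. The fall was 8.22-fold against 3.22-fold (interaction 1.35 ± 0.25, edgeR adjusted p = 0.0107), and the call was kept in 9 of 12 single-library omissions and lost without nonspecific vehicle 2, nonspecific DHT 2 or nonspecific DHT 3 (edgeR adjusted p = 0.0529 to 0.0698). KIF5B, a heavy chain of the motor kinesin-1 (chromosome 10, 32009010 to 32056431), showed the opposite starting point. It stood at 722, 767 and 762 CPM in nonspecific vehicle and 597, 523 and 474 in paxillin vehicle, and in DHT at 285, 271 and 273 and 268, 268 and 277 CPM. The paxillin group was lower in vehicle and the groups overlapped in DHT (interaction 0.47 ± 0.09, edgeR adjusted p = 0.0139). The KIF5B call was kept only without nonspecific vehicle 1, nonspecific vehicle 3, nonspecific DHT 1, nonspecific DHT 3, paxillin vehicle 1 or paxillin DHT 1 among the 12 single-library omissions (edgeR adjusted p up to 0.110 in the others). RANBP10, which binds the GTPase Ran, fell 1.96-fold against 1.36-fold (interaction 0.52 ± 0.11, edgeR adjusted p = 0.0305), with each paxillin library below each nonspecific one in vehicle and above each in DHT, where the difference by siRNA was not called (edgeR adjusted p = 0.507). The homeobox gene IRX3 fell 1.77-fold against 1.29-fold (interaction 0.45 ± 0.10, edgeR adjusted p = 0.0404), and its siRNA groups overlapped in both treatments. The RANBP10 call was kept only without nonspecific vehicle 1, nonspecific vehicle 3, paxillin vehicle 1 or paxillin DHT 1 among the 12 single-library omissions (edgeR adjusted p up to 0.184 in the others), and the IRX3 call was kept only without nonspecific vehicle 1 or paxillin vehicle 1 among the 12 single-library omissions (edgeR adjusted p up to 0.128 in the others).

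**Figure D3:**
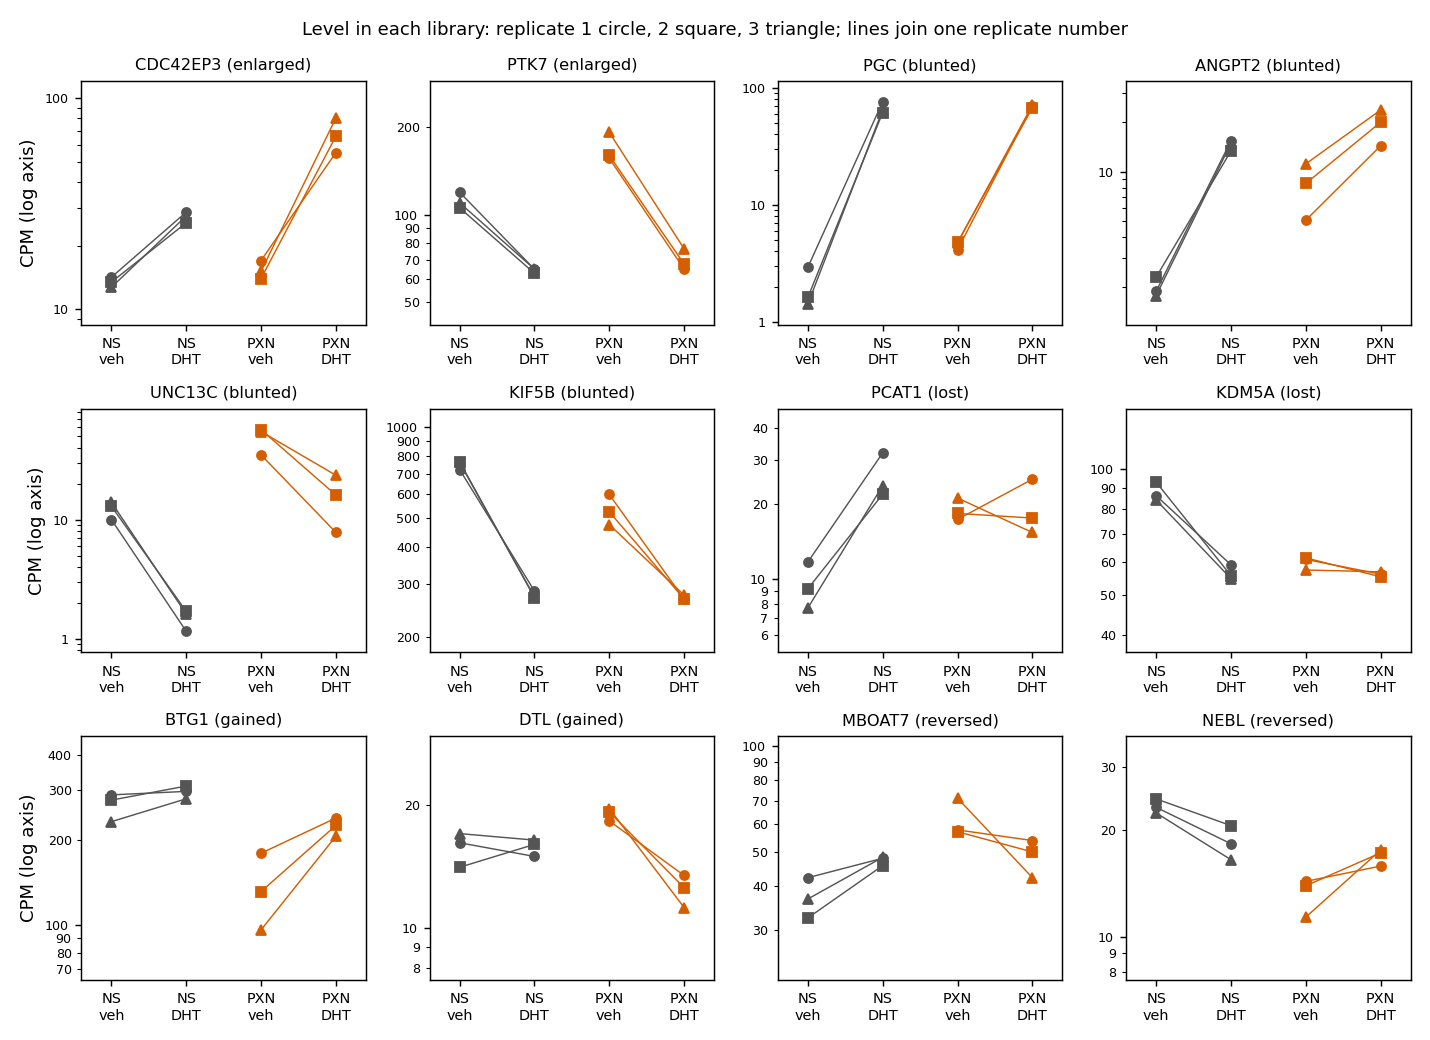
Level of 12 of the 97 genes in each library, in CPM on a log axis, with nonspecific siRNA (NS, grey) and paxillin siRNA (PXN, orange) in vehicle (veh) and DHT; lines join libraries of 1 replicate number. CDC42EP3 differs between the siRNAs in DHT, whereas PGC, KIF5B, KDM5A and PTK7 differ mainly in vehicle.

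Lost responses numbered 15, and no DHT change was called for them with paxillin siRNA. PCAT1, a long noncoding RNA linked to prostate cancer, had the largest interaction among them. With nonspecific siRNA it rose from 11.7, 9.19 and 7.71 to 31.9, 21.8 and 23.6 CPM. With paxillin siRNA it stood at 17.3, 18.3 and 21.1 CPM in vehicle and 25.04, 17.6 and 15.4 in DHT. In vehicle every paxillin library was above every nonspecific one, and in DHT the groups overlapped. DHT raised it 2.72-fold with nonspecific siRNA, and the log2 change with paxillin siRNA was 0.01 (edgeR adjusted p = 0.961). The interaction was -1.43 ± 0.18 (edgeR adjusted p = 0.00122), and the call was kept in all 12 single-library omissions. Exons of PCAT1 overlap those of FAM84B on the opposite strand and POU5F1B on the same strand, so its counts are uncertain. DUSP1, a phosphatase that inactivates MAP kinases (chromosome 5, 172768090 to 172771195), rose from 24.2, 22.9 and 30.1 to 38.3, 34.1 and 45.8 CPM with nonspecific siRNA, and went from 28.4, 32.97 and 36.95 to 32.02, 33.5 and 44.2 with paxillin siRNA. Its siRNA groups overlapped in both treatments (interaction -0.47 ± 0.10, edgeR adjusted p = 0.0341), and the call was kept only without nonspecific vehicle 1, nonspecific vehicle 3, paxillin vehicle 1 or paxillin vehicle 3 among the 12 single-library omissions (edgeR adjusted p up to 0.164 in the others). LY6E, a GPI-anchored membrane protein, had an interaction of -0.49 ± 0.09 (edgeR adjusted p = 0.00944) and was higher in vehicle and lower in DHT with paxillin siRNA, without overlap. The LY6E call was kept in 10 of 12 single-library omissions and lost without nonspecific vehicle 2 or nonspecific DHT 2 (edgeR adjusted p = 0.0504 to 0.0529). NUDT8, a nudix hydrolase, was higher with paxillin siRNA in both treatments, and its log2 change with DHT was 0.37 with nonspecific and -0.14 with paxillin siRNA (interaction -0.51 ± 0.11, edgeR adjusted p = 0.0267). The NUDT8 call was kept only without nonspecific vehicle 1, nonspecific vehicle 3, nonspecific DHT 3, paxillin vehicle 1 or paxillin DHT 3 among the 12 single-library omissions (edgeR adjusted p up to 0.160 in the others).

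The lost falls numbered 7. KDM5A, a histone H3 lysine demethylase (chromosome 12, 280129 to 389454), fell from 86.3, 92.97 and 84.3 to 58.98, 55.6 and 54.7 CPM with nonspecific siRNA. With paxillin siRNA it stood at 60.8, 61.3 and 57.3 CPM in vehicle and 56.01, 55.2 and 56.7 in DHT. Paxillin vehicle libraries lay far below nonspecific vehicle ones and near the DHT level, and the DHT groups overlapped. The fall was 1.56-fold with nonspecific siRNA, and the log2 change with paxillin siRNA was -0.09 (edgeR adjusted p = 0.183; interaction 0.55 ± 0.08, edgeR adjusted p = 0.00205). The KDM5A call was kept in all 12 single-library omissions, and its exons overlap those of CCDC77 on the opposite strand. VPS54, a subunit of the GARP tethering complex (chromosome 2, 63892146 to 64019072), stood at 31.2, 35.97 and 35.9 CPM in vehicle and 21.5, 24.3 and 23.2 in DHT with nonspecific siRNA, against 20.4, 18.8 and 17.3 and 18.1, 19.95 and 22.96 with paxillin siRNA. Its siRNA groups were apart in vehicle alone (interaction 0.69 ± 0.12, edgeR adjusted p = 0.00993), and the call was kept in 9 of 12 single-library omissions and lost without nonspecific vehicle 2, paxillin vehicle 2 or paxillin DHT 3 (edgeR adjusted p = 0.0508 to 0.0699). The phosphatase gene CDC14B and the zinc finger gene ZNF189 had interactions of 0.63 ± 0.13 and 0.54 ± 0.12 (edgeR adjusted p = 0.0279 and 0.0461). Both were lower with paxillin siRNA in vehicle and higher in DHT, without overlap. For CDC14B the difference by siRNA in DHT was not called (edgeR adjusted p = 0.106). The CDC14B call was kept only without nonspecific vehicle 1, nonspecific vehicle 3, nonspecific DHT 1, paxillin vehicle 1, paxillin DHT 1 or paxillin DHT 2 among the 12 single-library omissions (edgeR adjusted p up to 0.184 in the others), and the ZNF189 call was kept only without nonspecific vehicle 1, nonspecific vehicle 3, nonspecific DHT 3 or paxillin vehicle 1 among the 12 single-library omissions (edgeR adjusted p up to 0.270 in the others).

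Gained responses numbered 9. BTG1, an antiproliferative gene (chromosome 12, 92140278 to 92145897), stood at 289, 277 and 233 CPM in vehicle and 298, 311 and 280.2 in DHT with nonspecific siRNA, where the groups overlapped. With paxillin siRNA it rose from 179.9, 132 and 96.4 to 239.5, 226 and 206 CPM without overlap. Paxillin siRNA lowered it in both treatments, 1.99-fold in vehicle and 1.33-fold in DHT (interaction 0.58 ± 0.13, edgeR adjusted p = 0.0371). The BTG1 call was kept only without nonspecific vehicle 1, nonspecific vehicle 3, nonspecific DHT 3, paxillin vehicle 1 or paxillin DHT 1 among the 12 single-library omissions (edgeR adjusted p up to 0.184 in the others), and its exons overlap those of LINC01619 on the same strand. FNBP1L, which links Cdc42 to actin assembly (chromosome 1, 93448131 to 93554661), stood at 85.2, 85.3 and 82.9 CPM in vehicle and 89.3, 85.02 and 87.95 in DHT with nonspecific siRNA, and at 72.8, 75.2 and 72.3 and 93.6, 99.2 and 110.3 with paxillin siRNA. The paxillin group was lower in vehicle and higher in DHT, without overlap in either (interaction 0.41 ± 0.08, edgeR adjusted p = 0.0258). The FNBP1L call was kept only without nonspecific vehicle 1, nonspecific vehicle 3, nonspecific DHT 1, paxillin vehicle 1 or paxillin DHT 1 among the 12 single-library omissions (edgeR adjusted p up to 0.138 in the others). PPP2R3A, a regulatory subunit of protein phosphatase PP2A, and ZNF827 had interactions of 0.44 ± 0.10 and 0.41 ± 0.10 (edgeR adjusted p = 0.0332 and 0.0483). The PPP2R3A call was kept only without nonspecific vehicle 1, nonspecific vehicle 3, nonspecific DHT 1 or paxillin vehicle 1 among the 12 single-library omissions (edgeR adjusted p up to 0.184 in the others), and the ZNF827 call was kept only without nonspecific vehicle 1, nonspecific DHT 3 or paxillin vehicle 1 among the 12 single-library omissions (edgeR adjusted p up to 0.228 in the others).

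The 4 gained falls were in DTL, PKMYT1, CLU and LPCAT4. DTL, the substrate receptor of a ubiquitin ligase that destroys replication licensing factors (chromosome 1, 212035553 to 212107400), stood at 16.1, 14.1 and 16.99 CPM in vehicle and 14.9, 15.99 and 16.4 in DHT with nonspecific siRNA, where the groups overlapped. With paxillin siRNA it fell from 18.2, 19.2 and 19.6 to 13.4, 12.6 and 11.2 CPM. The paxillin group was higher in vehicle and lower in DHT, without overlap in either (interaction -0.62 ± 0.13, edgeR adjusted p = 0.0305), and the call was kept only without nonspecific vehicle 1, nonspecific vehicle 3, nonspecific DHT 1, paxillin vehicle 1 or paxillin DHT 1 among the 12 single-library omissions (edgeR adjusted p up to 0.164 in the others). PKMYT1, a kinase that inhibits CDK1 (chromosome 16, 2968024 to 2980539), stood at 23.6, 18.7 and 23.9 CPM and 19.5, 21.05 and 21.9 CPM with nonspecific siRNA and fell from 28.1, 31.95 and 36.4 to 21.1, 20.4 and 22.3 CPM with paxillin siRNA. Only its vehicle siRNA groups were apart, with paxillin higher (interaction -0.52 ± 0.12, edgeR adjusted p = 0.0471). The PKMYT1 call was kept only without nonspecific vehicle 1, nonspecific vehicle 3 or paxillin vehicle 1 among the 12 single-library omissions (edgeR adjusted p up to 0.220 in the others), and its exons overlap those of KREMEN2 and PAQR4. CLU, which encodes the secreted chaperone clusterin, and LPCAT4, a lysophospholipid acyltransferase, had interactions of -0.55 ± 0.12 and -0.47 ± 0.10 (edgeR adjusted p = 0.0306 and 0.0368). The CLU call was kept only without nonspecific vehicle 1 or paxillin vehicle 1 among the 12 single-library omissions (edgeR adjusted p up to 0.119 in the others), and the LPCAT4 call was kept only without nonspecific vehicle 1 or paxillin vehicle 1 among the 12 single-library omissions (edgeR adjusted p up to 0.164 in the others).

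Of the 11 reversed responses, 5 turned from a fall to a rise and 6 from a rise to a fall. MBOAT7, an acyltransferase of lysophosphatidylinositol (chromosome 19, 54173412 to 54189882), rose from 42.3, 32.5 and 36.8 to 48.1, 45.8 and 48.4 CPM with nonspecific siRNA and fell from 57.9, 57.2 and 71.3 to 53.98, 50.1 and 42.3 with paxillin siRNA. The siRNA groups were apart in vehicle, with paxillin higher, and overlapped in DHT (interaction -0.71 ± 0.13, edgeR adjusted p = 0.00944). The MBOAT7 call was kept in 11 of 12 single-library omissions and lost without nonspecific vehicle 2 (edgeR adjusted p = 0.0676). NEBL, an actin-binding protein of the nebulin family (chromosome 10, 20779973 to 21174187), fell from 23.2, 24.5 and 22.3 to 18.3, 20.6 and 16.5 CPM with nonspecific siRNA and rose from 14.3, 13.9 and 11.4 to 15.8, 17.2 and 17.6 with paxillin siRNA. Here too only the vehicle groups were apart, with paxillin lower (interaction 0.70 ± 0.12, edgeR adjusted p = 0.00975). The NEBL call was kept in 11 of 12 single-library omissions and lost without nonspecific vehicle 2 (edgeR adjusted p = 0.0529), and exons of NEBL overlap those of NEBL-AS1. The transcription factor NFIB, COBLL1 and TP53I11, named after their values were seen, had interactions of 0.60 ± 0.08, 0.65 ± 0.11 and 0.50 ± 0.08 (edgeR adjusted p = 0.00176, 0.00482 and 0.00482), each kept in all 12 single-library omissions. In all 5 genes that fell with nonspecific and rose with paxillin siRNA, the level in vehicle was called lower with paxillin siRNA. RPL18AP3 and RPL15P3 had interactions of -1.36 ± 0.31 and -0.97 ± 0.22 (edgeR adjusted p = 0.0425 and 0.0476). They are processed pseudogenes of ribosomal protein genes at a few CPM, so their reads may belong to the parent genes. The RPL18AP3 call was kept only without nonspecific vehicle 1, nonspecific vehicle 3, paxillin vehicle 1 or paxillin vehicle 3 among the 12 single-library omissions (edgeR adjusted p up to 0.168 in the others), and the RPL15P3 call was kept only without nonspecific vehicle 1, nonspecific vehicle 3 or paxillin vehicle 3 among the 12 single-library omissions (edgeR adjusted p up to 0.146 in the others).

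Across the 97 genes the siRNA difference lay more often in vehicle than in DHT. The interaction equals the siRNA difference in DHT minus that in vehicle, so each gene had to differ in at least 1 of them, and only the split between them is informative. The effect of paxillin siRNA was called in vehicle alone in 51 genes, in DHT alone in 17 and in both in 29. Over all genes it was called in 28.3% in vehicle and in 21.6% in DHT. The median absolute log2 change by paxillin siRNA was 0.42 in vehicle and 0.21 in DHT over the 97 genes, and it was larger in vehicle in 70. The siRNA groups did not overlap for 75 of the 97 in vehicle (35.9% of all genes) and for 49 in DHT (32.1%). In all 97 the interaction had 1 sign in the 3 replicate numbers, against 35.5% of all genes, which the test itself favours.

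**Figure D4:**
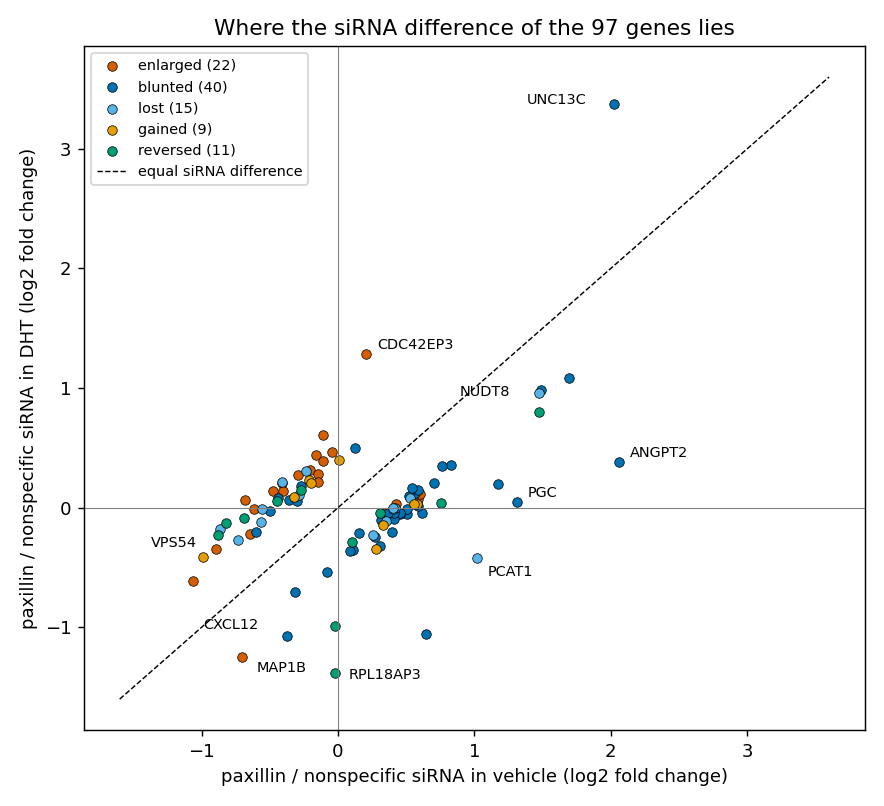
Log2 fold change of paxillin against nonspecific siRNA in vehicle (horizontal axis) and in DHT (vertical axis) for the 97 genes, coloured by class; the dashed line marks an equal siRNA difference. In 70 of the 97 genes the point lies farther from 0 along the vehicle axis, and CDC42EP3, CXCL12, UNC13C and RPL18AP3 are among those that lie farther along the DHT axis.

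Most of the well-known androgen targets were not called for a differing DHT response, though calls were more frequent among them than over all genes. Of 38 androgen-induced genes tested, 1 (ELL2) had a more positive DHT change with paxillin siRNA and 2 (KCNN2, RHOU) a more negative one. EdgeR did not call the other 35. Over all genes tested, 0.261% were called more positive and 0.341% more negative. An unadjusted p below 0.05 was found in 19 of the 38 and in 13.3% of all genes. The median interaction of the list was -0.08 (log2) against -0.00 over all genes, and its median DHT change was 2.13 with nonspecific and 2.22 with paxillin siRNA. KLK3, which encodes prostate-specific antigen, had an interaction of 0.16 ± 0.11 (edgeR adjusted p = 0.547) and TMPRSS2, a serine protease gene, one of 0.04 ± 0.12 (edgeR adjusted p = 0.920). For FKBP5, a co-chaperone of steroid receptors, it was -0.26 ± 0.10 (edgeR adjusted p = 0.278). Of the 12 androgen-repressed genes 0 were called by edgeR or limma-voom. DESeq2 gave an adjusted p to only 3 of the 12 and called 0 of these. In edgeR 2 of the 12 had an unadjusted p under 0.05, both positive. The list median was -0.13, with -0.10, 0.18 and 0.13 in the replicate numbers, so its sign differed between them. DESeq2 called 1 androgen-induced gene with a positive and 6 with a negative interaction. In edgeR 0 of the 38 were called without the replicate block and 8 without paxillin vehicle 1 or without the filter on low counts. A p that missed the threshold does not show that these responses were equal.

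DNA replication genes leaned to a larger fall with DHT under paxillin siRNA, with few members past the threshold. Of 48 tested, 2 were called for the interaction, both negative: TYMS and MCM2. Over all genes 0.341% were called negative. The list median was -0.23 (log2), 43 of the 48 values were negative, and 24 were negative at an unadjusted p under 0.05, where 7.45% of all genes were. The median DHT change was -0.08 with nonspecific and -0.32 with paxillin siRNA, and 14 and 35 of the 48 fell in the respective arms (21.5% and 20.9% of all genes). The median change by paxillin siRNA was 0.15 in vehicle and -0.07 in DHT. In the replicate numbers 1, 2 and 3 the median interaction was -0.15, -0.29 and -0.32. DESeq2 called 5 of the list, all negative, and limma-voom 2. Over the 12 omissions of 1 library edgeR called 0 to 12. It called 12 without paxillin vehicle 1, 10 without nonspecific vehicle 3, 5 without nonspecific vehicle 1, 3 without paxillin DHT 1 and 0 without each of the other 8 libraries. It called 9 without the filter on low counts, 3 with a block for each siRNA and replicate number and 0 without the replicate block.

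MCM2, a subunit of the replicative helicase (chromosome 3, 127598223 to 127622436), stood at 112, 105 and 123 CPM in nonspecific vehicle and 129, 143 and 155 in paxillin vehicle, and at 96.9, 100.5 and 102 and 97.1, 96.6 and 96.9 CPM in DHT. The paxillin group was higher in vehicle and overlapped with the nonspecific group in DHT (interaction -0.37 ± 0.08, edgeR adjusted p = 0.0404). The MCM2 call was kept only without nonspecific vehicle 1, nonspecific vehicle 3, paxillin vehicle 1 or paxillin DHT 1 among the 12 single-library omissions (edgeR adjusted p up to 0.193 in the others). TYMS, thymidylate synthase (chromosome 18, 657604 to 673578), rose from 42.2, 42.2 and 42.2 to 46.6, 46.4 and 47.4 CPM with nonspecific and fell from 44.4, 45.3 and 46.7 to 40.4, 37.7 and 37.1 with paxillin siRNA. No pair of its groups in 1 arm or 1 treatment overlapped, though the steps were of a few CPM (interaction -0.39 ± 0.08, edgeR adjusted p = 0.0305). The TYMS call was kept only without nonspecific vehicle 1, nonspecific vehicle 3, paxillin vehicle 1 or paxillin DHT 1 among the 12 single-library omissions (edgeR adjusted p up to 0.109 in the others). Exons of TYMS overlap those of ENOSF1 and TYMSOS, and exons of MCM2 overlap those of TPRA1, so both counts are uncertain. The other genes of the helicase ring, MCM3 to MCM7, had interactions of -0.28, -0.32, -0.37, -0.15 and -0.24. None of them was called in the main edgeR fit (TMM scaling, replicate block, filter on low counts), by DESeq2 or by limma-voom. Without the filter on low counts edgeR called MCM4 and MCM5 over the 12 libraries. Without paxillin vehicle 1 it called MCM3, MCM4 and MCM5. It called MCM4 and MCM5 without nonspecific vehicle 3, and MCM4 without nonspecific vehicle 1. CDC45, which activates the helicase, had -0.52 ± 0.13 and PRIM2, a primase subunit, -0.59 ± 0.14 (edgeR adjusted p = 0.0735 and 0.0637). DESeq2 called both CDC45 and PRIM2.

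Many replication genes carry sites of the E2F transcription factors at their start, and the sequences were searched for the E2F-type motifs TTCGCGC and TTGGCGC on both strands. In windows of 250 bases before to 50 after the start from RefSeq (GRCh38.p14), 17 of the 41 replication genes with an entry (41.5%) held either motif, against 8.51% of 10461 tested genes and 5.18% of all 27305 promoters. Of the 97 genes, the windows of 3 of 36 with a positive (8.33%) and 2 of 37 with a negative interaction (5.41%) held one, no more often than those of the tested genes. The motifs share the letters GCGC and could overlap each other on opposite strands. DTL, a called gene, was picked by name. Its RefSeq start lies downstream of the gene start at 212035553 given above, so the motif in its window lies inside that gene. The lines that follow give the 250 bases before the first listed RefSeq start of DTL and of 3 genes of the replication list. These 3, E2F1, CHAF1A and MCM7, had the smallest interaction p among list genes with a motif in these bases. The called list members TYMS and MCM2 are not shown, as they had no motif found there or no entry. The lines show where the letters lie, with the motif in capitals. Each holds it once, at position -7 in DTL, -19 in E2F1, -37 in CHAF1A and -8 in MCM7, counted from the start to the first motif base.
DTL, chr1:212035498-212035747, plus strand: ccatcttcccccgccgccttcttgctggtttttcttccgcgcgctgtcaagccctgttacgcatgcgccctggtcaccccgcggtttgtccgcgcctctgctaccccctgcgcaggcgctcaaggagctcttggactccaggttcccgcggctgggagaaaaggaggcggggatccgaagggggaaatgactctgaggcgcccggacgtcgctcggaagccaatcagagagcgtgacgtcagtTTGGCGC
E2F1, chr20:33686386-33686635, minus strand: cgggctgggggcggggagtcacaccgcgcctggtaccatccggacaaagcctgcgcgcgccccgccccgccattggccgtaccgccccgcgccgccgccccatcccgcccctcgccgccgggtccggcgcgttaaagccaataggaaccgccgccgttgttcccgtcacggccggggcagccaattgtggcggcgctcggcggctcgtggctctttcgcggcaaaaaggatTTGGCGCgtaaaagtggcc
CHAF1A, chr19:4402390-4402639, plus strand: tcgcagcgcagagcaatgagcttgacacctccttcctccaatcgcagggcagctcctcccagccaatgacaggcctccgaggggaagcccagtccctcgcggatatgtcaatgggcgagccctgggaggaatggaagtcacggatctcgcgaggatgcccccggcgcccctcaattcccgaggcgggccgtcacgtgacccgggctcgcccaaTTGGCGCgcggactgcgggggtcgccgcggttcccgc
MCM7, chr7:100101398-100101647, minus strand: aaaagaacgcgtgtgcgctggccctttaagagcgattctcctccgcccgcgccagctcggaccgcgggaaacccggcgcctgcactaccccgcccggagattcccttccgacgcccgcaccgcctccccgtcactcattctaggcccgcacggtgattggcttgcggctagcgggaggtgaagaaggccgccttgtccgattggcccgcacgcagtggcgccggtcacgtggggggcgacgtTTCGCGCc
A match is a description of the letters and not a measured binding site. E2F1, a transcription factor of the G1 to S transition, stood at 30.3, 25.7 and 32.5 CPM in vehicle and 29.9, 30.8 and 30.7 in DHT with nonspecific siRNA, and at 35.6, 40.3 and 46.3 and 31.6, 30.2 and 29.9 with paxillin siRNA. Its siRNA groups were apart in vehicle, with paxillin higher, and overlapped in DHT. Its interaction of -0.46 ± 0.12 was not called in the main fit (edgeR adjusted p = 0.0730), while DESeq2 called it. EdgeR also called it without the filter on low counts, without nonspecific vehicle 1 and without nonspecific vehicle 3. CHAF1A, a histone chaperone at replication forks, and MCM7 were not called in the main fit either, at -0.30 ± 0.09 and -0.24 ± 0.09 (edgeR adjusted p = 0.150 and 0.256). EdgeR called CHAF1A without nonspecific vehicle 1. The steroid response element pattern ACANNNTGT, searched the same way, was in 2.65% of tested promoters, in 1 of 36 with a positive and 0 of 37 with a negative interaction.

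Other lists gave few or no calls, and over all genes tested 0.602% were called. Of 19 ERK and immediate early genes, 2 (DUSP1, MYC) were called with a more negative DHT change, at a list median of -0.10. Of 27 p53 targets 1 (GDF15) was called by edgeR, 14 had an unadjusted p under 0.05 (13.3% of all genes), and the median was -0.18. DESeq2 called 3 and limma-voom 1 of them, and edgeR called 4 without paxillin vehicle 1, 3 without nonspecific vehicle 3 and 0 without each of 7 other libraries. With an offset for GC content and length, with a block for each siRNA and replicate number, or without the replicate block, the count was 0. Of 26 endoplasmic reticulum folding and export genes 1 (PDIA5), and of 29 Wnt genes 1 (FZD5), were called, with medians of -0.00 and -0.05. In all of these the called members had a smaller rise with paxillin siRNA.

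In several lists the main edgeR fit called 0 members while the median lay away from that of all genes. Without the filter on low counts edgeR called 7 of the ATF4 list, 1 of the mitosis list and 6 of the ribosomal protein list, all negative. DESeq2 called 3 of the ATF4 list and 1 each of the mitosis and ribosomal protein lists, all negative, and limma-voom called 0 in each. Without 1 library edgeR called up to 6 of the ATF4 list (without nonspecific DHT 1), 3 of the mitosis list and 6 of the ribosomal protein list (both without nonspecific vehicle 3), all negative. The 28 ATF4 and amino acid genes had a median of -0.21 with 25 negative values, 14 of them at an unadjusted p under 0.05. Over all genes 7.45% were negative at that threshold. The 40 mitosis genes had -0.14 with 34 negative values, 9 of them at an unadjusted p under 0.05. The 54 ribosomal protein genes had -0.15 with 52 negative values, and -0.35, -0.03 and -0.11 in the replicate numbers. Of the 54, 38 rose with nonspecific and 3 with paxillin siRNA (24.6% and 22.9% of all genes), and with 0 called for the interaction and 14 at an unadjusted p under 0.05 the arms are not shown to differ. The 13 mitochondrially encoded genes had a median of 0.15, with 0.47, 0.21 and -0.28 in the replicate numbers, so its sign differed between them, and over the 12 libraries 0 of them had an unadjusted p under 0.05 by edgeR, DESeq2 or limma-voom. In edgeR 11 of the 13 had one without nonspecific vehicle 3, 4 without nonspecific DHT 3 and 6 without the filter on low counts, and 0 were called in each. Among the genes of paxillin's own surroundings, 0 of 40 focal adhesion, 0 of 23 integrin and matrix and 0 of 30 actin cytoskeleton genes were called in the main edgeR fit. Without the filter on low counts edgeR called 1, 2 and 1 of them. With an unadjusted p below 0.05, 2 focal adhesion genes were more positive and 4 more negative, 2 and 9 in the integrin list and 5 and 0 in the actin list. Over all 16115 genes these counts were 939 and 1200, or 13.3% for both signs together. DESeq2 gave an adjusted p to 31 focal adhesion, 19 integrin and matrix and 26 actin genes. It called 1 integrin and matrix gene, positive, and limma-voom called 0 in the 3 lists. Without 1 library edgeR called up to 3 focal adhesion genes (without paxillin vehicle 1), 4 integrin and matrix genes (without nonspecific vehicle 1) and 1 actin gene. Their medians were 0.07, -0.10 and -0.06.

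**Figure D5:**
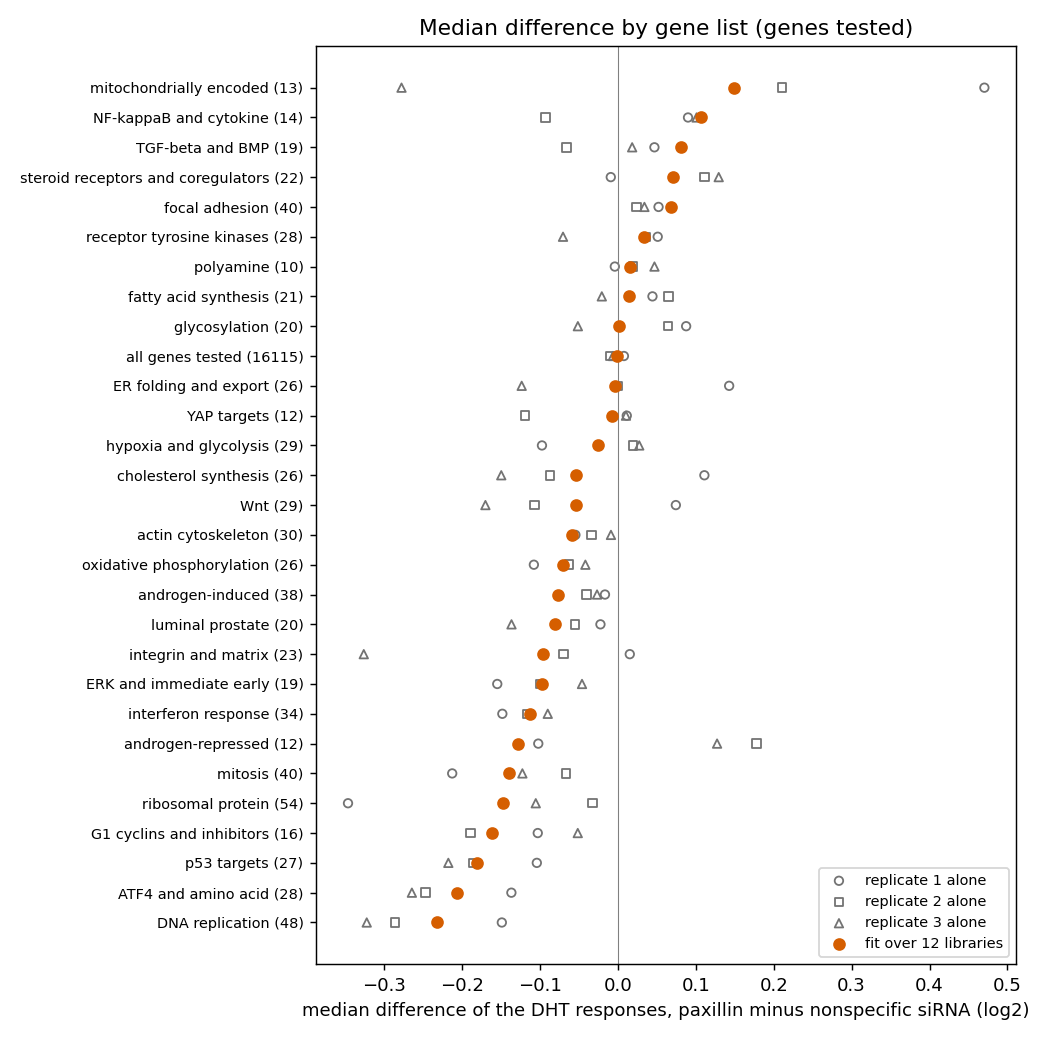
Median difference of the DHT responses (log2, paxillin minus nonspecific siRNA) over the tested genes of each list with at least 10 of them, from the fit over 12 libraries (filled) and from each replicate number alone (open symbols). DNA replication lies lowest at -0.23, mitochondrially encoded genes highest at 0.15, and the replicate numbers of the latter fall on both sides of 0.

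Among the 97 called genes, GC content and transcript length differed by the sign of the interaction. The 42 called genes with a positive interaction had a median GC content of 41.1% and a median length of the longest transcript of 5465 bases. The 54 called genes with a negative interaction and a value had 55.04% and 2337 bases, and all tested genes with a value 48.6% and 3504 bases. With an offset for GC content and length, chosen after seeing the data, 84 genes were called, 71 of them among the 97. All 97 kept their direction, which their selection from the same counts favours.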

How the data were processed

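RNA of 12 libraries of C4-2 cells in 4 groups of 3 was measured. The authors deposited raw counts per gene for each library, whole numbers that were not normalized. Per the submitters' processing notes, Trimmomatic 0.36, STAR 2.5.2b, Subread 1.5.0p3 with featureCounts and the GRCh38 build were used, and the strand setting is not given in the sources used here. Of 56269 genes in the table, 22061 had no count and 16115 passed edgeR's expression filter (minimum count 10, minimum total 15).

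Counts were scaled by TMM and fitted in edgeR 4.0.16 (R 4.3.3) with quasi-likelihood tests over all 12 libraries, with group and replicate number as terms. The tested contrast was the DHT change with paxillin siRNA minus that with nonspecific siRNA. P-values were adjusted by Benjamini-Hochberg over all tested genes and called under 0.05. The script was tested on simulated data. Library totals limit precision at low counts, and replicates differed by more than counting noise. A standard error is the absolute log2 change divided by the square root of F, and CPM are counts per 1000000 of the TMM-scaled library total. Interactions per replicate number used log2 CPM with a prior count of 2.

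The block used the replicate numbers that the labels give, and the labels do not say what a shared number means. For 9283 genes, the deviations of libraries from their group mean were correlated: r was 0.18 to 0.51 in the 18 pairs that shared a number and -0.45 to 0.24 in the 36 other pairs across groups. Deviations from a group mean cancel out within the group. The values of the other pairs are therefore tied to those of the 18 and are no separate evidence for the block.

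The genes named were those called with a highest group mean of at least 5 CPM: the 4 largest interactions per class and DHT direction, up to 4 reversed, up to 2 called members per gene list and direction, and a panel of PXN, its paralogs and androgen targets. Clone, LINC, microRNA and antisense names were left out. Genes named by other choice are said to be, and some results under this rule are not reported here. The comparison, the gene lists and the rule were chosen with earlier results of these data known.

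Alternatives were no replicate block, a block for each siRNA and replicate number, RLE and upper-quartile scaling, no filter, DESeq2 1.42.0, limma-voom (limma 3.58.1), each library and each replicate number left out, and an offset for GC content and transcript length, added after seeing the data. Gene positions and exon overlaps are from GENCODE 29 and promoter sequences from RefSeq.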

Additional observations from a re-analysis of the deposited data

Results flagged for a closer look

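Each gene in this list is here because its DHT response differed between the siRNAs by the test of the difference itself (edgeR interaction, Benjamini-Hochberg adjusted over all genes). Values are log2 differences, paxillin minus nonspecific siRNA. Among enlarged rises they were 1.08 for CDC42EP3, 0.75 for TMTC2, 0.71 for ZNF737, 0.62 for NECTIN3 and 0.55 for ELL2. Among enlarged falls they were -0.55 for MAP1B, -0.49 for PTK7, -0.40 for LMO4 and -0.37 for MCM2.

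Blunted rises gave -1.70 for NPPC, -1.68 for ANGPT2, -1.26 for PGC, -0.97 for CSGALNACT1 and -0.63 for KCNN2. They further gave -0.51 each for MYC, FZD5 and RHOU, -0.50 for PDIA5 and -0.39 for GDF15. Blunted falls gave 1.35 for UNC13C, 0.52 for RANBP10, 0.47 for KIF5B and 0.45 for IRX3.

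Lost rises gave -1.43 for PCAT1, -0.51 for NUDT8, -0.49 for LY6E and -0.47 for DUSP1, and lost falls 0.69 for VPS54, 0.63 for CDC14B, 0.55 for KDM5A and 0.54 for ZNF189. Gained rises gave 0.58 for BTG1, 0.44 for PPP2R3A and 0.41 each for ZNF827 and FNBP1L. Gained falls gave -0.62 for DTL, -0.55 for CLU, -0.52 for PKMYT1 and -0.47 for LPCAT4. Reversed responses gave -1.36 for RPL18AP3, -0.97 for RPL15P3, -0.71 for MBOAT7, -0.39 for TYMS and 0.70 for NEBL.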

How the results depend on the processing

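All 97 genes kept their direction in the 23 alternatives, which their selection from these same libraries favours. Of them, 16 kept the call without each single library. Without the replicate block 8 genes were called, 5 enlarged, 1 blunted, 2 lost, 0 gained and 0 reversed. With a block for each siRNA and replicate number 108 were called (92 of the 97), with gained responses at 15. Without the filter on low counts 361 were called (all 97 among them), 48 enlarged, 126 blunted, 100 lost, 60 gained and 27 reversed. DESeq2 gave an adjusted p to 8617 genes. It called 212 (92 of the 97), 34 enlarged, 83 blunted, 61 lost, 25 gained and 1 with no called response in either arm. Limma-voom called 86 (83 of the 97) and RLE scaling 96 (all among the 97). Upper-quartile scaling called 112, 36 positive and 76 negative (32.1% positive, against 43.3% with TMM scaling), and the positive share was 29.6% without the filter and 35.8% in DESeq2. Leaving out libraries or replicate numbers gave 0 to 560 genes, with 0 to 68 enlarged, 0 to 171 blunted, 0 to 184 lost, 0 to 101 gained and 0 to 36 reversed, and the cause was not tested. Of the comparisons of named genes with these omissions 477 kept their side of the threshold and 303 lost the call, and of those with other settings 346 kept it, 64 lost it and 1 gained it. No scaling moved the median interaction over all genes by more than 0.02. In 566 genes an interaction of at least 1 (log2) in size was not called, and the part of low counts in this was not tested.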
